A study of Mus musculus with 14 samples.

Results

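The genes described here are 41 that sense or repair damage to DNA. They were chosen by name, from the gene names of the deposited count table, and all 41 were found among its 54532 genes. They fall into 6 groups by their role: 7 genes of end joining, 12 of damage signalling, 9 of homologous recombination and crosslink repair, 8 of base excision and single-strand break repair, 4 of nucleotide excision repair and 1 of mismatch repair.

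Broken DNA ends are either rejoined directly by end joining or copied from the sister chromatid by homologous recombination, which works in dividing cells once DNA has been replicated. Kinases such as ATM, ATR and DNA-PK recognise the lesion, mark the chromatin around it through phosphorylation of the histone H2AX, and pass the signal to CHK1 and CHK2. Damaged bases, bulky adducts and mispaired bases are handled by base excision, nucleotide excision and mismatch repair. Ionising radiation makes strand breaks and damaged bases, and lymphocytes also use end joining, uracil excision and mismatch repair when they rearrange and mutate their antibody genes.

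RNA was sequenced from sorted submandibular gland cells, from a gland that makes saliva, of adult TertCreERT2/+ Rosa26LSL-tdTomato/+ mice. In these mice a tamoxifen-inducible Cre is expressed from the locus of Tert, the catalytic subunit of telomerase, and switches on the red reporter tdTomato. Cells of all groups were DAPI- and EpCAM+, where DAPI marks dead cells and EpCAM is an epithelial surface protein. The 4 groups were tdTomato+ cells (Tert+) without irradiation (n = 3), tdTomato- cells (Tert-) without irradiation (n = 3), and the same populations after 15 Gy of radiation therapy (RT; n = 4 each). The time between RT and sorting is not given in the labels. Whether replicates are separate animals is not in the labels, and the p-values therefore describe the spread among these libraries alone, which may be technical.

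Total counts per library ran from 9220126 to 15943597 without RT in Tert+, from 9687159 to 13454637 without RT in Tert-, from 5986984 to 11642156 after RT in Tert+ and from 5520412 to 10953634 after RT in Tert-. The sample titles gave the groups, and a separate cell type field contradicted the title in 14 of 14 libraries. Which of Tert+ and Tert- is called higher therefore follows the titles. The reporter locus did not settle it: Tert had 0, 7 and 8 counts in Tert+ and 22, 28 and 13 in Tert-, both without RT. After RT Tert+ had 0, 52, 34 and 15 counts and Tert- had 0, 0, 9 and 15. The library numbers in the labels are all higher for irradiated than for unirradiated samples. What the numbers stand for is not stated, and RT cannot be told apart from anything that follows them. Against the epithelial sort, per length, the medians over the 14 libraries of 6 B cell genes ran from 19.6 CPM per kb (Pax5) to 1918 (Cd79a, a part of the B cell receptor), and those of 6 epithelial genes from 0.267 (Krt19) to 65.45 (Krt18), with Epcam at 21.35. Here CPM is a gene's count divided by its library's total after TMM scaling, on the usual common scale.

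Of the 41 genes, 34 were matched to a window of 300 bases, 250 before to 50 after the start site, in RefSeq sequence of the GRCm38.p6 assembly. The genes without a window were H2afx, Rad50, Nbn, Prkdc, Fancd2, Xpc and Ddb2. The windows were searched on both strands for TTCCCGC and TTTNGCGC, which resemble the sites of the cell cycle factor E2F, for CCAAT, for TTTGAA, which resembles the cell cycle homology region of genes of dividing cells, and for the p53 response element. Matches of TTCCCGC and TTTNGCGC can overlap. A gene was counted where any of its windows held the motif; Lig1 had 3 windows, and Lig4 and Rad54l had 2 each. TTCCCGC was found in 13 of 34 genes (38.2%), against 9.66% of 10009 tested protein-coding genes, and either E2F-like motif was found in 14 of 34 (41.2%) against 11.98%. CCAAT was found in 17 of 34 genes (50%) against 42.82%, and TTTGAA in 2 of 34 (5.9%) against 14.53%. The p53 element was found in 0 of 34 genes and in 6 of the 10009 (0.06%). It is so rare in such windows that the 0 of 34 says nothing about p53 and repair genes. A match is a description of letters and not a measured binding site.

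The 14 genes with an E2F-like motif are shown so that the letters can be set beside their values. Of the genes whose transcript level changed after RT, Xrcc6, Chek1 and Lig1, which fell, held such a motif, Lig1 in 1 of its 3 windows. The start site of the window with the motif lay 28534 bases from the start of the counted gene in Xrcc6, 407 in Chek1 and 1543 in Lig1. The Lig1 window nearest that start, at 108 bases, held none. In Chek1 and Lig1 the match lay after the start site. Xrcc1, which fell, and Dclre1c, which rose, held none, and H2afx, Nbn and Prkdc were not matched to a window. The other 11 genes shown were not called after RT. Each stretch of 30 bases is written 5′ to 3′ on the gene's strand, with the motif in capitals, in GRCm38.p6 coordinates. For each gene 1 match is printed, which lay before the start site in 9 genes and after it in 5. Chek2 and Mdc1 each held 2 matches.
Xrcc6, chr15:82016311-82016340, plus strand: cagggggtggaaGCGGGAAatgcgagtggg
Xrcc4, chr13:90089691-90089720, minus strand: ggcccgctgtgcTTCCCGCtcgctccagcg
Atm, chr9:53536639-53536668, minus strand: atagagccggaaGCGGGAAggcgtgcgtac
Chek1, chr9:36726609-36726638, minus strand: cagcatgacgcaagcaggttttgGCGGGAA
Chek2, chr5:110839819-110839848, plus strand: gcgggattagccGCGGGAAaccaagacgtc
Mdc1, chr17:35841357-35841386, plus strand: ttggaaatctgcGCGGGAAgtagtccgtgg
Rnf8, chr17:29614753-29614782, plus strand: acacctgcgcacTTCCCGCccgcctcccgc
Rnf168, chr16:32277413-32277442, plus strand: ctagcaggctagGCGGGAAcgcagacgcag
Rad52, chr6:119902554-119902583, plus strand: cttgctgcggctGCGGGAAggctgatcgcc
Brca2, chr5:150522441-150522470, plus strand: ttttaggccacaGCGGGAAacagacacaca
Bard1, chr1:71103163-71103192, minus strand: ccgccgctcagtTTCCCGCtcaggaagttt
Fanci, chr7:79392344-79392373, plus strand: gcgtggagtagaGCGGGAAttttggaagga
Lig1, chr7:13278841-13278870, plus strand: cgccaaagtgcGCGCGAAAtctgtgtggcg
Msh6, chr17:87975054-87975083, plus strand: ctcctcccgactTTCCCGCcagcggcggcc

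Dclre1c, which encodes the nuclease Artemis, rose after RT. CCAAT was not particular to it: Xrcc1, which fell, held 1 copy 82 bases before its start. Chek2, Mre11a, Fanca, Ogg1 and Apex1, which were not called, held 2 each in their windows, in Apex1 1 of them after the start. The 250 bases before the start site of Dclre1c held no E2F-like motif and 3 copies of CCAAT. They are in capitals here as ATTGG on the strand shown, at 76, 65 and 33 bases before the start.
Dclre1c, chr2:3423881-3424130, plus strand: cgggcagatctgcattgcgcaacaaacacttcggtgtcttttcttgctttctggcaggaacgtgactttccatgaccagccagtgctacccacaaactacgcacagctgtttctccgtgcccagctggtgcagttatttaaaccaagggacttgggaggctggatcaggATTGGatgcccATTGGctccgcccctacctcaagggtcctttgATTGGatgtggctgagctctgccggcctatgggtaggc

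Per length, the most abundant of the 41 transcripts was Parp1, whose enzyme binds strand breaks and builds chains of ADP-ribose, with a median over the 14 libraries of 83.8 CPM per kb (range 72.6 to 116). H2afx, which encodes the histone H2AX, followed at 34.15 CPM per kb (22.5 to 81.5). Nbn stood at 20.4 CPM per kb (8.83 to 31.2), Apex1 at 17.8 (13.4 to 25.1) and Msh6 at 12.25 (3.36 to 17.5). The ranges of H2afx and Nbn overlapped, as did those of Nbn, Apex1 and Msh6, while the lowest library of Parp1 lay below the highest of H2afx.

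The 9 genes of homologous recombination and crosslink repair among the 41 stood at the bottom of this order. All 9 were among the 12 lowest, at ranks 30 to 41, with medians from 0.0771 CPM per kb for Bard1 to 1.93 for Rad52. Fancd2 (0.114), Rad54l (0.316) and Brca1 (0.455) were also near the bottom, beside Chek1 of the signalling genes (0.281). These genes were counted in few reads, and 8 of the 41 genes, Lig4, Chek1, Rad54l, Brca1, Palb2, Bard1, Fancd2 and Fanci, had no count in 1 to 4 libraries. The spread over all libraries, as a coefficient of variation, was 15.5% for Parp1 and 153% for Bard1. The low levels hold for the 9 listed genes and not for these pathways as a whole. Outside the 41, other recombination and resection genes had medians from 0.0383 CPM per kb (Exo1) to 34.0 (Rpa1). Other crosslink repair genes ran from 0.780 (Ube2t) to 15.6 (Usp1).

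**Figure D1:**
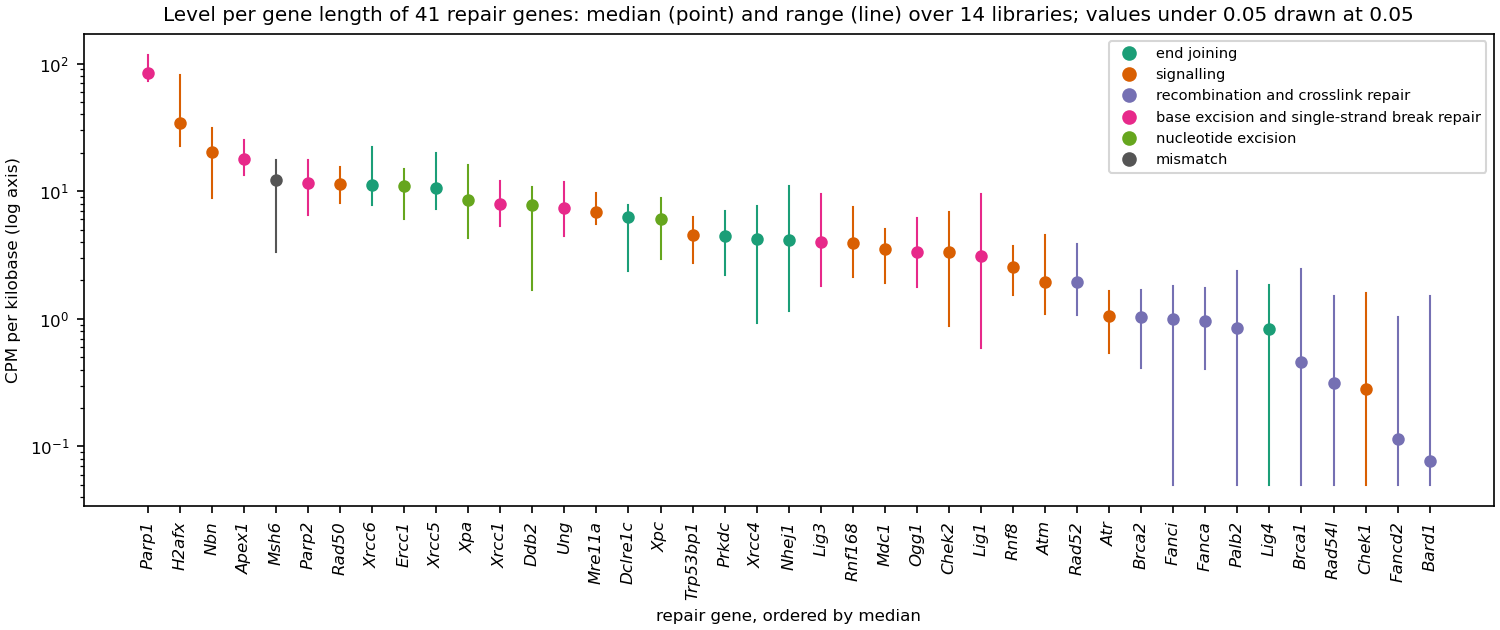
Level per length of each of the 41 genes (vertical axis, CPM per kb, log scale; genes on the horizontal axis, ordered by median), with the median over the 14 libraries (point) and the range (line, values under 0.05 drawn at 0.05), coloured by repair pathway. The 9 genes of recombination and crosslink repair lie at the low, right end and Parp1 at the high, left end.

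The summed level of the 41 transcripts overlapped between RT and no RT within each population. It was 1590 ± 219 CPM (SD, n = 3) in Tert+ without RT, 1568 ± 25.7 (n = 3) in Tert- without RT, 1455 ± 24.5 (n = 4) in Tert+ after RT and 1469 ± 69.9 (n = 4) in Tert- after RT. In Tert+ the libraries ran from 1350 to 1779 CPM without RT and from 1428 to 1486 after it, and in Tert- from 1550 to 1597 and from 1388 to 1558. All 41 genes passed the filter on low counts and were tested with 15915 genes in all, with edgeR's quasi-likelihood F test (two-sided) and Benjamini-Hochberg adjustment over all of them. A gene was called where its adjusted p was under 0.05.

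Between Tert+ and Tert- cells no repair gene was called. Without RT, 0 of 41 passed, where 0.0377% of all genes tested did, and 3 of 41 had an unadjusted p under 0.05 (7.32%, against 4.50% of all genes). DESeq2 and limma voom called 0 as well. The smallest p belonged to Brca2, a recombination mediator, with 5.62, 6.13 and 10.85 CPM in Tert+ and 13.4, 19.5 and 13.3 in Tert-. The groups did not overlap, but the difference of -1.03 (SE 0.36) on the log2 scale had an adjusted p of 0.921 by edgeR. Chek2, which encodes a checkpoint kinase downstream of ATM, read 7.70, 3.48 and 2.66 CPM in Tert+ and 8.76, 11.3 and 13.9 in Tert- (log2 difference -1.30, SE 0.51). Xrcc6, with the values given below, was 0.51 (SE 0.20) higher in Tert+ on the log2 scale, without a call. In all, 6 of 41 genes (Xrcc6, Atm, Chek1, Chek2, Mre11a and Brca2) had groups that did not overlap, or 14.6%, against 8.87% of all genes. The median log2 difference of the 41 was -0.05, and that of all genes 0.01. Macrophage genes, at 94.4 to 188 CPM in sum in Tert+ and 1466 to 1810 in Tert-, differed between these populations (2 of 6 called, lower in Tert+), and their part in the repair gene values was not tested.

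After RT the result was the same, with 0 of 41 called by edgeR, DESeq2 and limma voom, where edgeR called 0.0126% of all genes, and 1 of 41 had an unadjusted p under 0.05 (2.44%, against 7.39% of all genes). That gene was Lig1, with a log2 difference of -1.16 (SE 0.47) and an edgeR adjusted p of 0.624. Chek2 (0.84, SE 0.43) and Mdc1, a mediator that binds phosphorylated H2AX (-0.46, SE 0.27), came next. No gene of the 41 had groups that did not overlap, against 4.88% of all genes, and the median log2 difference was -0.11 against -0.004 over all genes.

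RT went with changes in named repair genes. Averaged over the RT effects of both populations, 8 of the 41 genes were called (19.5%), where 13.4% of all genes tested were. Transcripts of H2afx, Xrcc6, Lig1, Chek1 and Xrcc1 fell (5 of 41). Those of Nbn, Dclre1c and Prkdc rose (3 of 41). Of all genes called, 1012 rose and 1114 fell. An unadjusted p under 0.05 was found in 18 of 41 genes (43.9%), against 28.9% of all genes. The median log2 change was 0.04 over the 41 genes and -0.01 over all genes. In Tert+ cells alone 3 of 41 genes were called, all lower, where 1.98% of all genes were called, 176 higher and 139 lower. In Tert- cells alone 0 of 41 were called, where 1.62% of all genes were.

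Both RT comparisons rest on separate libraries. The sign of the change was the same in both for 31 of 41 genes, 16 higher and 15 lower (75.6%), and for 71.6% of all genes tested. Across the 41 genes the log2 changes in Tert+ and Tert- had Pearson's r of 0.50 and Spearman's rho of 0.56. Across all genes the values were 0.36 and 0.49. Genes are not independent replicates, and these correlations are descriptions. Tert+ and Tert- replicates of the same number have adjacent library numbers, and whether they share an animal is not in the labels. The fit treated all libraries as separate. If animals were shared, the mean RT comparison has fewer independent units than libraries, and its p-values may be too small.

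**Figure D2:**
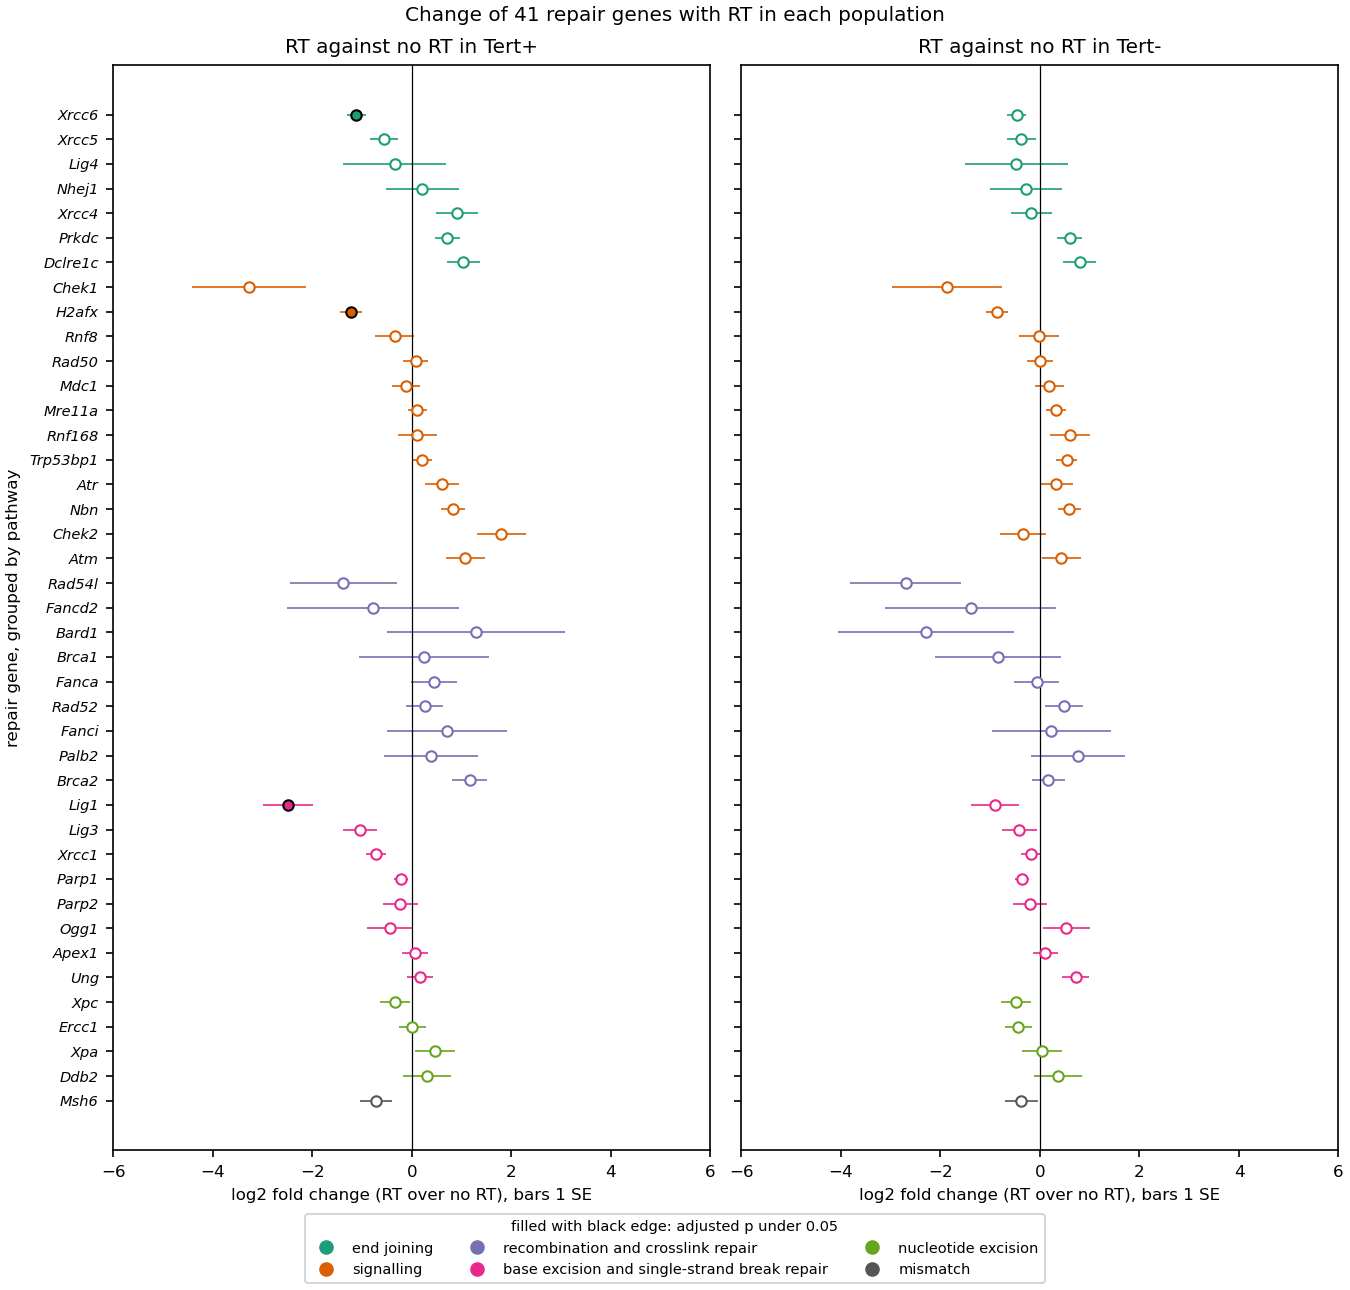
Log2 fold change after RT (horizontal axis, RT over no RT, bars 1 SE) of each of the 41 genes in Tert+ (left) and Tert- (right), coloured by repair pathway, with filled points for an adjusted p under 0.05. Xrcc6, H2afx and Lig1 are the called genes in Tert+, at -1.12, -1.23 and -2.49.

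Markers of other cell types moved with RT, and their values stand beside every RT result that follows. Of 10 genes of dividing cells, 8 fell with RT in the mean of both populations. Their summed level was 546 to 689 CPM in Tert+ and 429.8 to 647.5 CPM in Tert- without RT, and 263 to 289 and 271 to 332 CPM after RT. Of 6 genes of germinal centre B cells, which divide and mutate their antibody genes, 5 fell. Their sums were 320.8 to 668.9 CPM in Tert+ and 278.6 to 298.0 CPM in Tert- without RT, and 112 to 144 and 109.9 to 120 CPM after RT. After RT the germinal centre gene Gcsam had no count in 4 libraries and Rgs13 none in 3. Genes of B cells in general showed 0 of 6 calls, with sums of 6558 to 10814 CPM without RT and 7538 to 9622 after it. Epithelial genes showed 0 of 6 calls, and Krt19 had no count in 6 libraries. In the same comparison 1 of 5 plasma cell genes rose and 2 fell, 1 of 6 macrophage and 1 of 5 acinar genes fell, and 0 of 6 T cell and 0 of 5 granular duct genes were called. The median of the macrophage genes had opposite signs in the populations. In Tert+ 1 of 6 rose (Ms4a7) and 4 of 6 were higher, with a median log2 difference of 1.66 and sums of 94.4 to 188 CPM without RT and 74.7 to 172.5 after it. In Tert- 0 of 6 were called, with a median of -1.29, all 6 lower after RT, and sums of 1466 to 1810 CPM without RT and 231.7 to 1123 after it. The part of these shifts in the repair gene changes was not tested. In bulk RNA, fewer cells of a type and less RNA per cell cannot be told apart.

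**Figure D3:**
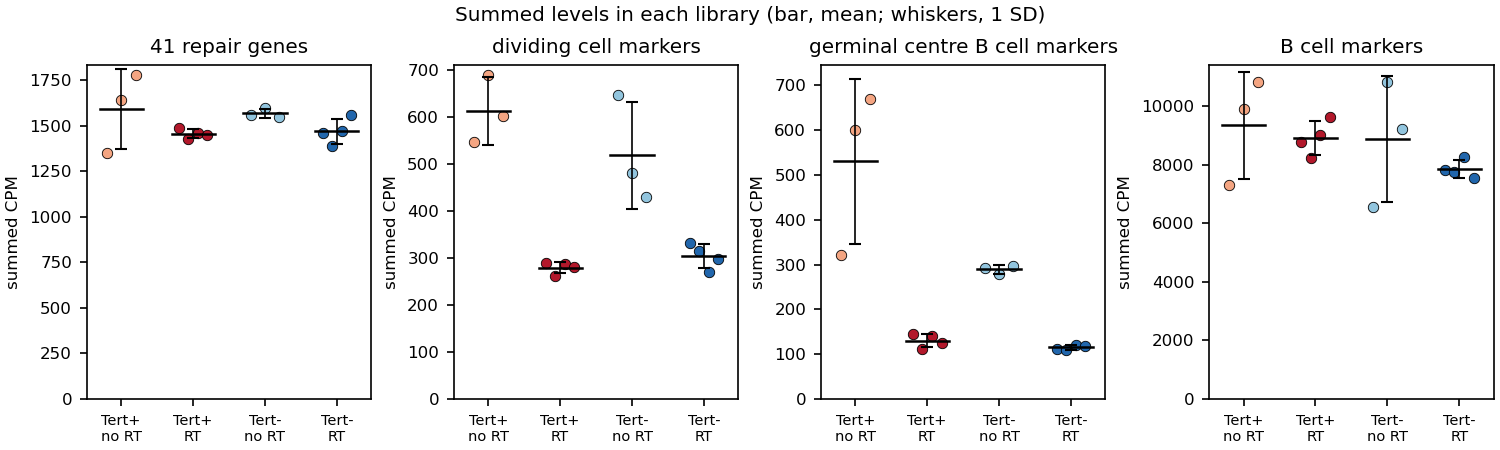
Summed level in each library (vertical axis, CPM, from 0; bar, mean; whiskers, 1 SD) of the 41 repair genes and of the markers of dividing cells, germinal centre B cells and B cells, by group. The dividing and germinal centre sums of the 8 libraries after RT all lie below those of the 6 without RT, and the sums of the repair genes overlap between RT and no RT within each population.

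Among the end joining genes, the Ku subunit gene Xrcc6 fell while the kinase and nuclease genes Prkdc and Dclre1c rose. Ku is the ring of the XRCC6 and XRCC5 proteins that first binds a broken end. Xrcc6 (chr15:81987835-82040085) read 71.8, 99.2 and 86.2 CPM in Tert+ and 52.5, 62.2 and 66.2 CPM in Tert- without RT. After RT it read 52.4, 34.9, 34.7 and 36.3 CPM in Tert+ and 48.4, 40.5, 43.9 and 41.4 CPM in Tert-. No library after RT reached the lowest library without RT, although the Tert+ library at 52.4 came close to the Tert- library at 52.5. The mean log2 change was -0.79 (SE 0.13, adjusted p 0.00192 by edgeR), with -1.12 (SE 0.19, adjusted p 0.0136) in Tert+ and -0.47 (SE 0.19, adjusted p 0.191) in Tert-. Xrcc5, the other Ku subunit gene, read 26.5, 51.0 and 24.6 CPM in Tert+ and 26.8, 46.8 and 42.5 in Tert- without RT. After RT it read 26.0, 20.85, 27.3 and 18.4 CPM in Tert+ and 31.0, 31.4, 32.8 and 24.4 in Tert-. Its groups overlapped, and its mean log2 change of -0.47 (SE 0.20) was not called.

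Prkdc (chr16:15637866-15842235) encodes the catalytic subunit of DNA-PK, the kinase that Ku recruits. It read 42.4, 33.1 and 53.9 CPM in Tert+ and 60.2, 28.8 and 39.5 in Tert- without RT, and 68.5, 92.8, 56.5 and 64.2 CPM in Tert+ and 64.9, 73.0, 57.0 and 65.5 CPM in Tert- after RT. In Tert+ every library after RT was above every library without, and in Tert- the replicate 1 without RT lay within the range after RT. The mean log2 rise was 0.66 (SE 0.18, adjusted p 0.0251 by edgeR). Dclre1c (chr2:3424131-3464130), whose product Artemis trims ends that DNA-PK holds, read 27.7, 31.55 and 21.9 CPM in Tert+ and 59.9, 26.5 and 23.3 in Tert- without RT. After RT it read 65.96, 65.5, 27.97 and 61.85 CPM in Tert+ and 72.5, 56.8, 62.95 and 62.3 in Tert-. A library of each state sat with the other state, namely Tert- without RT replicate 1 at 59.9 and Tert+ after RT replicate 3 at 27.97. The mean log2 rise was 0.91 (SE 0.24, adjusted p 0.0202 by edgeR). In Tert+ alone neither Prkdc (0.71, SE 0.25) nor Dclre1c (1.03, SE 0.34) was called, nor were they in Tert- alone (0.60, SE 0.25, and 0.80, SE 0.33).

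The ligase complex genes were not called. On the log2 scale the fitted RT difference was -0.41 (SE 0.73) for Lig4, which encodes the ligase that seals the ends, 0.37 (SE 0.30) for its partner Xrcc4 and -0.04 (SE 0.51) for the scaffold gene Nhej1. In all, 2 of the 7 end joining genes rose and 1 fell in the mean of both populations, where 13.4% of all genes were called, and their median log2 change was -0.04 against -0.01 over all genes. The call of Dclre1c was lost without Tert+ no RT replicate 3 (adjusted p 0.0568), without Tert- no RT replicate 2 (0.0558) or without Tert- no RT replicate 3 (0.0558), and that of Prkdc without Tert+ no RT replicate 2 (0.0728), Tert- no RT replicate 2 (0.0607) or Tert- no RT replicate 3 (0.0633), all by edgeR.

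**Figure D4:**
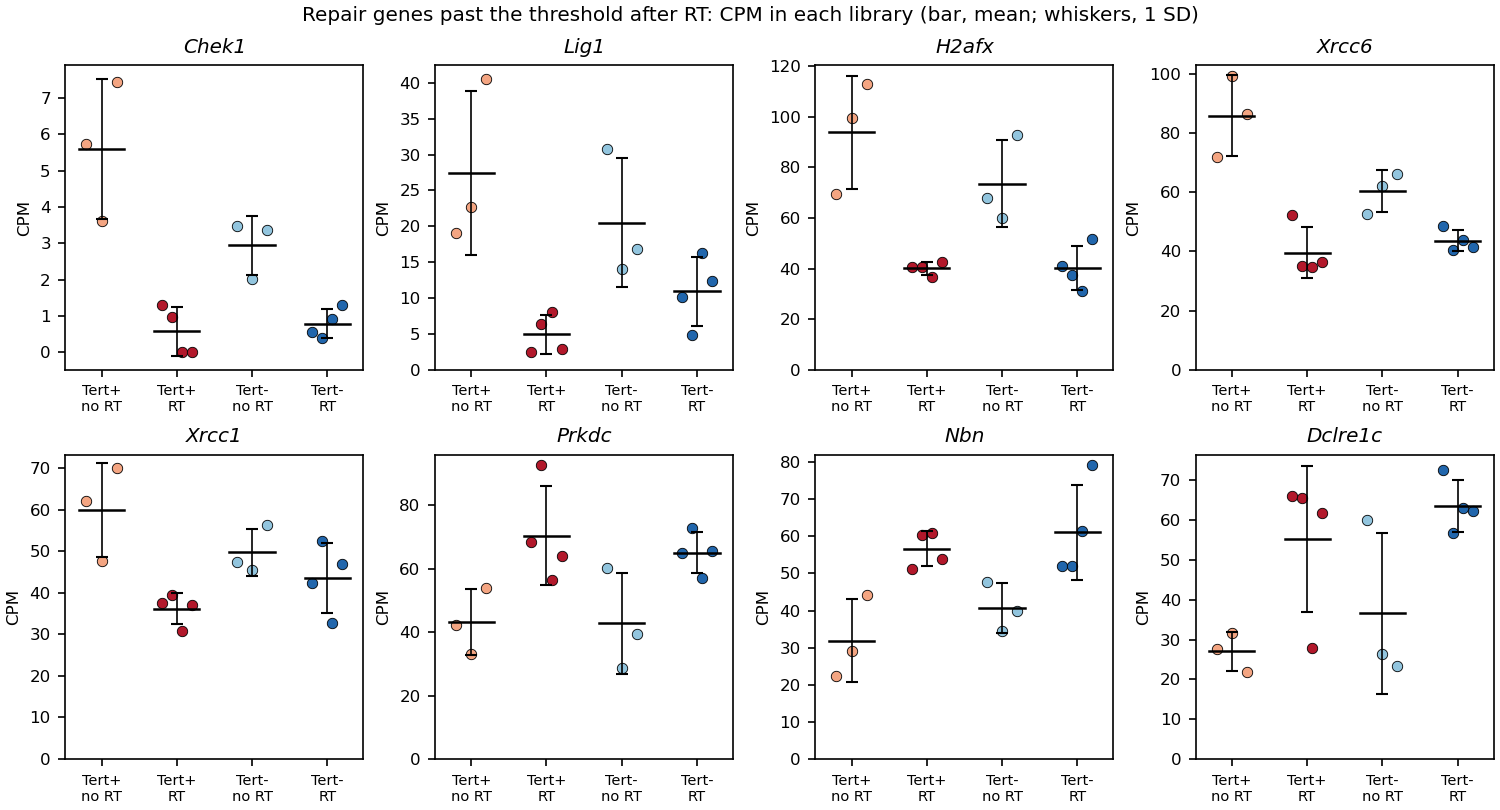
CPM of the 8 called genes in each library (vertical axis, linear), by group, with the mean (bar) and 1 SD (whiskers). H2afx, Xrcc6 and Chek1 are lower in all 8 libraries after RT than in all 6 without, Nbn is higher in all 8, and the other genes overlap.

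Of the signalling genes, H2afx and Chek1 fell and Nbn rose. H2afx (chr9:44334694-44336077) read 69.4, 99.5 and 113 CPM in Tert+ and 67.8, 59.9 and 92.9 in Tert- without RT. After RT it read 40.4, 40.7, 36.7 and 42.7 CPM in Tert+ and 40.98, 37.4, 31.1 and 51.85 in Tert-. All 8 libraries after RT lay below all 6 without. The mean log2 change was -1.05 (SE 0.15, adjusted p 0.00106 by edgeR). It was -1.23 (SE 0.21, adjusted p 0.0159) in Tert+ and -0.86 (SE 0.21, adjusted p 0.0541) in Tert-, where DESeq2 called it. H2afx has close histone copies, and how reads shared between copies were counted is not stated, so its level is less certain.

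Nbn (chr4:15957925-15992589) encodes nibrin of the complex with MRE11 and RAD50 that binds broken ends and activates ATM. It read 22.4, 29.15 and 44.1 CPM in Tert+ and 47.7, 34.35 and 39.8 in Tert- without RT, and 51.3, 60.5, 60.9 and 53.9 CPM in Tert+ and 52.05, 51.9, 61.5 and 79.1 CPM in Tert- after RT. All 8 libraries after RT lay above all 6 without. The mean log2 rise was 0.71 (SE 0.17, adjusted p 0.0127 by edgeR), with 0.83 (SE 0.24, adjusted p 0.0829) in Tert+ and 0.59 (SE 0.23, adjusted p 0.189) in Tert-. Its partners were not called: the log2 difference was 0.22 (SE 0.14) for Mre11a and 0.03 (SE 0.18) for Rad50.

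Chek1 (chr9:36708482-36727065), whose kinase halts the cell cycle at damaged replication forks, was counted in few reads. Without RT it had 47, 57 and 98 counts in Tert+ and 47, 23 and 32 counts in Tert-. After RT it had 15, 6, 0 and 0 counts in Tert+ and 3, 3, 7 and 15 in Tert-. Scaled to CPM, the 2.01 to 7.44 of the libraries without RT did not overlap the 0 to 1.31 after RT. The mean log2 change was -2.57 (SE 0.79, adjusted p 0.0436 by edgeR). The call held in 7 of 20 alternatives, and was lost in 11 of the 14 fits that left out 1 library, among them those without any 1 of the 6 libraries without RT. In those fits the adjusted p was highest, at 0.104, without Tert+ no RT replicate 3.

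Chek2 had the smallest p of the 41 genes for a difference in RT effect between the populations. It read 7.70, 3.48 and 2.66 CPM in Tert+ without RT and 9.67, 19.9, 13.8 and 20.5 after it, and 8.76, 11.3 and 13.9 CPM in Tert- without RT and 10.3, 11.7, 3.97 and 9.66 after it. The log2 change was 1.80 (SE 0.49) in Tert+ and -0.34 (SE 0.46) in Tert-. The difference of the changes, 2.14 (SE 0.66), had an unadjusted p of 0.00551 but an adjusted p of 1.00 by edgeR over all genes. Of the upstream kinases, Atm had a log2 difference of 0.75 (SE 0.28) and Atr one of 0.47 (SE 0.24) in the mean of both populations, and neither was called. The chromatin factors were not called: the log2 difference was 0.37 (SE 0.145) for Trp53bp1, which binds marked chromatin at breaks, 0.04 (SE 0.20) for Mdc1, and -0.18 (SE 0.28) and 0.36 (SE 0.28) for the ubiquitin ligase genes Rnf8 and Rnf168. In all, 1 of the 12 signalling genes rose and 2 fell, where 13.4% of all genes were called, with a median log2 change of 0.29 against -0.01 over all genes.

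None of the 9 genes of recombination and crosslink repair was called in any comparison. In the mean RT comparison 13.4% of all genes were called, the median log2 change of the 9 was 0.19 against -0.01 over all genes, and 2 of 9 had an unadjusted p under 0.05, where 28.9% of all genes did. Rad52, which anneals single strands, read 10.3, 16.9 and 10.9 CPM in Tert+ and 6.185, 12.3 and 10.9 in Tert- without RT, and 15.5, 10.99, 18.8 and 15.6 CPM in Tert+ and 10.5, 11.2, 22.1 and 11.04 CPM in Tert- after RT. Brca2, which loads the recombinase, read 22.65, 17.8, 14.6 and 12.6 CPM in Tert+ and 13.4, 15.05, 17.99 and 22.8 CPM in Tert- after RT, beside the values without RT given above. In Tert+ its libraries after RT were all above those without (log2 change 1.16, SE 0.35, adjusted p 0.0964 by edgeR), and in Tert- they overlapped (0.17, SE 0.34). In the mean RT comparison the log2 difference was -2.04 (SE 0.77) for Rad54l, a motor protein of strand exchange, and -0.30 (SE 0.91) for Brca1, the partner of Bard1. Those of Palb2 (0.57, SE 0.67), Bard1 (-0.50, SE 1.225), Fanca (0.19, SE 0.32), Fancd2 (-1.08, SE 1.22) and Fanci (0.47, SE 0.85) were not called either. Rad54l, Brca1, Palb2, Bard1, Fancd2 and Fanci had standard errors of 0.665 or more, so that a change of the size of that in H2afx would lie within 2 standard errors of 0.

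Of the base excision and single-strand break genes, Lig1 and Xrcc1 fell. Lig1 (chr7:13277283-13311433), the ligase that also joins Okazaki fragments in replication, read 19.1, 22.7 and 40.5 CPM in Tert+ and 30.8, 13.98 and 16.8 in Tert- without RT. After RT it read 2.53, 6.30, 8.05 and 2.82 CPM in Tert+ and 10.2, 4.80, 16.3 and 12.4 in Tert-. The Tert+ groups did not overlap, while in Tert- the highest library after RT, at 16.3, lay above the lowest without, at 13.98. The mean log2 change was -1.70 (SE 0.35, adjusted p 0.00603 by edgeR). It was -2.49 (SE 0.50, adjusted p 0.0256) in Tert+ and -0.91 (SE 0.48, adjusted p 0.329) in Tert-. The difference between the changes, -1.58 (SE 0.70), had an unadjusted p of 0.0380 and an adjusted p of 1.00.

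Xrcc1 (chr7:24546289-24573440) encodes the scaffold that holds single-strand break repair enzymes. It read 62.1, 47.6 and 70.1 CPM in Tert+ and 47.35, 45.5 and 56.3 in Tert- without RT, and 37.55, 39.4, 30.8 and 37.0 CPM in Tert+ and 42.25, 52.5, 32.7 and 46.85 CPM in Tert- after RT. The Tert+ groups did not overlap and the Tert- groups did. The mean log2 change was -0.46 (SE 0.14, adjusted p 0.0439 by edgeR), and the call held in 3 of 20 alternatives, 2 of them among the 14 fits that left out 1 library (those lacking Tert+ no RT replicate 2 or Tert- RT replicate 2). The adjusted p rose to 0.125 at most.

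The most abundant repair transcript, Parp1 (chr1:180568924-180601254), read 444, 525 and 614 CPM in Tert+ and 471, 585 and 548 in Tert- without RT, and 434, 384, 549 and 443 CPM in Tert+ and 426.5, 407, 405 and 425 CPM in Tert- after RT. In Tert- the libraries after RT all lay below those without. Its mean log2 change of -0.29 (SE 0.10) was not called (adjusted p 0.0638 by edgeR). Apex1, the endonuclease that cuts at abasic sites, read 19.1, 32.0 and 26.0 CPM in Tert+ and 23.3, 26.05 and 20.05 in Tert- without RT, and 35.6, 19.6, 26.2 and 26.35 CPM in Tert+ and 24.5, 20.2, 24.6 and 30.5 CPM in Tert- after RT. Its exons share 61.7% of their bases with those of Pip4p1, and whether counting used the strand is not stated, so its level is uncertain. The same holds in part for Lig3 (25.1%), Ddb2 (23.8%), Fanci (16%), Rad54l (15.4%), Trp53bp1 (15.0%), Ogg1 (10.6%), Fanca (10.5%) and H2afx (10.2%, with a miRNA gene). Of the other called genes it holds for 7.7% of the exon bases of Xrcc6, 5.8% of those of Lig1 and 3.8% of those of Dclre1c. Rnf8 shares 1542 exon bases with a gene on its own strand, which counting by strand would not separate. These are 13.2% of its exon bases in the GENCODE annotation, where its coordinates differ from those of the counted gene. The counted gene has 3178 bases, so the share of it that overlaps is not known. Lig3, the ligase partner of Xrcc1, had a log2 difference of -0.73 (SE 0.25) and Parp2 one of -0.22 (SE 0.25), and neither was called. Of the glycosylases, Ung, which removes uracil, had 0.44 (SE 0.19) and Ogg1, which removes oxidised guanine, 0.04 (SE 0.325) on the same scale, without a call. In all, 2 of the 8 genes fell and 0 rose in the mean RT comparison, where 13.4% of all genes were called. Their median log2 change was -0.25, against -0.01 over all genes.

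None of the 4 nucleotide excision genes was called in any comparison. Of all genes, 13.4% were called in the mean RT comparison and 1.98% or fewer in each of the others. Their median log2 change in the mean RT comparison was 0.02, against -0.01 over all genes. Ercc1, a subunit of the nuclease that cuts beside the lesion, read 22.1, 36.4 and 39.7 CPM in Tert+ and 27.5, 46.1 and 42.0 in Tert- without RT. After RT it read 34.8, 25.1, 37.25 and 34.9 CPM in Tert+ and 32.1, 18.7, 33.2 and 29.6 in Tert-. Xpa, which verifies the lesion, read 10.3, 16 and 14.5 CPM in Tert+ and 8.17, 22.2 and 16.2 in Tert- without RT, and 10.98, 21.8, 12.3 and 30.2 CPM in Tert+ and 11.8, 17.1, 17.5 and 17.3 CPM in Tert- after RT. Both overlapped between all groups. The damage sensor genes Xpc and Ddb2 had log2 differences of -0.41 (SE 0.215) and 0.34 (SE 0.34).

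Msh6, which recognises mispaired bases, was not called. It read 65.4, 69.3 and 74.6 CPM in Tert+ and 72.0, 47.0 and 62.0 in Tert- without RT, and 59.0, 54.15, 41.9 and 14.3 CPM in Tert+ and 50.05, 49.4, 44.7 and 41.8 CPM in Tert- after RT. In Tert+ no library after RT reached those without. The mean log2 change was -0.55 (SE 0.23), with an unadjusted p under 0.05 and no call.

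In Tert+ alone the RT calls were those of Xrcc6, H2afx and Lig1, and 13 of 41 genes had an unadjusted p under 0.05 (31.7%), where 18.0% of all genes did. In 11 of 41 genes (26.8%) the Tert+ groups did not overlap, against 15.5% of all genes. All 3 calls were lost without Tert+ no RT replicate 2 (adjusted p 0.0829 for H2afx, 0.0832 for Xrcc6 and 0.0861 for Lig1 by edgeR) or replicate 3 (0.0819, 0.0737 and 0.125), and that of Lig1 also without Tert+ RT replicate 1 (0.0561) or 2 (0.0506). They were also lost without both Tert+ RT replicates 3 and 4 (0.0745 to 0.0758), the libraries least correlated with their group. With only the Tert+ groups in the fit 1 of 41 was called, H2afx, while DESeq2 called 9 and limma voom 5. Over all genes these settings called 49 of 14285, 1057 of 15915 and 457 of 15915.

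In Tert- alone 0 of 41 genes were called, 9 had an unadjusted p under 0.05 (22.0%, against 18.8% of all genes), DESeq2 called 1 (H2afx) and limma voom 0. In 8 of 41 genes (19.5%) the Tert- groups did not overlap, against 18.9% of all genes. After H2afx the smallest p-values were those of Ung, with a log2 change of 0.72 (SE 0.27), and Trp53bp1, at 0.54 (SE 0.21). Without Tert- no RT replicate 1, edgeR called 4 genes, Prkdc, Dclre1c, H2afx and Trp53bp1. That fit called 901 of 16692 genes in all, against 258 of 15915 with every library. With every library, DESeq2 called 1198 of 15915 and limma voom 386. The RT effect differed between the populations in 0 of 41 genes, as in 0% of all genes, and 3 of 41 (Chek2, Xrcc6 and Lig1) had an unadjusted p under 0.05 for that difference (7.32%, against 3.63% of all genes). DESeq2 and limma voom also called 0 of the 41.

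The mean RT comparison set all 8 libraries after RT against all 6 without. In 4 of 41 genes (9.76%) they did not overlap, against 3.15% of all genes: Xrcc6, H2afx and Chek1 were lower and Nbn higher. The calls of H2afx, Xrcc6, Lig1 and Nbn held in each of the 20 alternatives run. The count of called genes was 4 without Tert- no RT replicate 2 or replicate 3, and 5 without Tert+ no RT replicate 3. Over all genes these fits called 1272 of 16819, 1211 of 17158 and 1236 of 16815.

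Of 86 other repair genes tested, 0 rose and 8 fell in the mean RT comparison (9.30%, where 13.4% of all genes were called), and their median log2 change was -0.17. The 6 largest falls, on the log2 scale, were those of Neil3 (-4.94, a fitted value on few counts, adjusted p 0.0114 by edgeR), Tipin (-0.97, 0.0267), Rpa1 (-0.89, 6.4e-04), Tdp1 (-0.68, 0.00826), Mad2l2 (-0.59, 0.0393) and Usp1 (-0.51, 0.0249). Neil3, a glycosylase of dividing cells, had 10, 33 and 42 counts in Tert+ and 86, 35 and 3 in Tert- without RT. After RT it had 0, 3, 0 and 0 counts in Tert+ and 0, 0, 0 and 2 in Tert-. The ratio of scaled group counts without RT to those after it was 27.96 in Tert+ and 58.1 in Tert-, with exact 95% counting intervals of 9.25 to 138 and 15.75 to 485. Single libraries held many of these counts: without Tert- no RT replicate 1 the ratio in Tert- was 29.3 (7.58 to 251), and all 3 counts in Tert+ after RT came from replicate 2. Leaving out any 1 of the other libraries of a population gave ratios of 19.05 to 31.6 in Tert+ and of 44.3 to 78.3 in Tert-, except that Tert- RT replicate 4 held both counts after RT. Rpa1, the large subunit of the protein that coats single-stranded DNA, fell in each population. It was at 301 ± 31.4 CPM (SD, n = 3) in Tert+ and 275 ± 57.0 (n = 3) in Tert- without RT, and at 173 ± 26.0 (n = 4) and 140 ± 19.8 (n = 4) after RT. The log2 change was -0.80 in Tert+ (adjusted p 0.0291) and -0.98 in Tert- (adjusted p 0.0146). Tdp1, which removes topoisomerase from DNA ends, also fell in Tert- (-0.94, adjusted p 0.0366). Pcna, the replication clamp, was not called (-0.10, adjusted p 0.678). None of these 86 genes was called between Tert+ and Tert- or for a difference of the RT effects.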

How the data were processed

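The authors deposited one table of read counts per gene without normalisation, 1 column for each of the 14 libraries, with gene lengths in bases, per the file headers. The submitters' processing notes name HISAT2, without a version, and mm10. The counting program, its use of strand and the annotation are not given in the sources used here, so reads of overlapping genes or close copies may be shared. Per the labels' protocols, 1 ng of RNA went into each library.

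The tests used edgeR 4.0.16 under R 4.3.3. filterByExpr on the 4 groups kept 15915 of 54532 genes, scaled by TMM. A model with 1 term per group over all 14 libraries gave robust quasi-likelihood F tests, two-sided, with Benjamini-Hochberg adjustment over all genes tested and a threshold of 0.05. The 6 comparisons were Tert+ against Tert- without and after RT, RT against no RT in each population, their mean, and their difference. CPM uses TMM-scaled totals, and CPM per kb divides by the table's gene length. The fit was tested on simulated data of 15146 genes. It made 2 false calls for RT in Tert+, 7 in Tert- and 8 in the mean. Of changes of 1 on the log2 scale it recovered 32% for RT in Tert+, 41% in Tert- and 66% in the mean. Of changes of 2 it recovered 78.8%, 80.8% and 96.0%. A gene that was not called may therefore still have changed. Alternatives were DESeq2 size factors in edgeR, no filter, DESeq2 1.42.0, limma 3.58.1 voom, replicate blocks, only the groups compared, and leaving out each library. Leaving out both Tert+ RT replicates 3 and 4, the least correlated with their group, was chosen after seeing the data.

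The genes and lists were chosen with earlier results of these data known. Of 89 other repair symbols 87 were matched and 86 tested, and of 56 marker symbols 55 were matched and tested. The germinal centre list is given without 1 gene, which is not reported here. Values in every library are given for genes past the threshold and for the 2 genes with the highest level per length in each pathway. Where none passed, the 3 genes with the smallest unadjusted p were named. Of the other repair genes at most 6 per comparison were named by size of change; Pcna and Neil3's group counts were added after the values were seen. Depth limits precision, and counting intervals cover counting error only.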

Additional observations from a re-analysis of the deposited data

Results flagged for a closer look

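In groups of 4 libraries, a gene was marked where its highest or lowest library stood apart from the other 3 by Dixon's criterion. Of 82 groups of 4 tested for the 41 repair genes, 10 were marked. Chance would mark about 1 in 20 (4.1 of 82) if the values were normally distributed and independent. CPM near 0 need not be normally distributed, and the genes share libraries. The number of marks is therefore a description and not a test of the libraries. In Tert+ after RT, the highest library was marked for Xrcc6 (52.4 CPM in replicate 1, next 36.3), Xrcc4 (32.5 CPM in replicate 3, next 19.5), Rnf168 (31.3 CPM in replicate 4, next 15.8) and Fancd2 (4.53 CPM in replicate 2, next 0.261). The lowest was marked for Dclre1c (27.97 CPM in replicate 3, next 61.85). In Tert- after RT, the highest library was marked for Rad52 (22.1 CPM in replicate 3, next 11.2), Bard1 (1.85 CPM in replicate 3, next 0.259) and Xpc (43.85 CPM in replicate 2, next 23.8). The lowest was marked for Fanci (3.19 CPM in replicate 4, next 7.25) and Xpa (11.8 CPM in replicate 1, next 17.1). Each of the 8 libraries after RT held 1 or 2 of the marks.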

How the results depend on the processing

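No log2 fold change of a called repair gene changed sign under the alternatives run. The number of the 41 genes called between Tert+ and Tert-, without or after RT, and for the difference of the RT effects was 0 under every alternative run. For RT in Tert+ the 3 calls became 9 with DESeq2, 5 with limma voom, 1 with only the groups compared and 0 without both Tert+ RT replicates 3 and 4, and ranged from 0 (without Tert+ no RT replicate 2 or 3) to 4 when 1 library was left out. For RT in Tert- the 0 calls became 1 with no filter, 1 with DESeq2, and 0 to 4 when 1 library was left out, the 4 without Tert- no RT replicate 1. For the mean RT comparison the 8 calls became 13 with DESeq2 and 4 to 8 when 1 library was left out. The cause of these shifts was not tested. Over all genes the mean RT comparison called 2126, against 3023 with DESeq2 and 1211 to 2516 when 1 library was left out. RT in Tert+ called 315, against 1057 with DESeq2, 49 with only the groups compared and 21 to 507 when 1 library was left out, and RT in Tert- called 258, against 1198, 88 and 18 to 901. With the replicate block, 3, 0 and 6 of the 41 genes were called for RT in Tert+, in Tert- and in the mean; the block ended the calls of Prkdc (adjusted p 0.0541), Chek1 (0.140) and Xrcc1 by edgeR and called Ung. Deviations of same-numbered Tert+ and Tert- libraries in the same RT state correlated from -0.02 to 0.19 over 7 pairs, 2 of them over 0.1, and 9 of 14 libraries correlated best with their own number, where 4 would if the numbers carried no information. Pairs of different numbers in the same RT state ran from -0.24 to 0.13 over 18 pairs, 1 of them over 0.1. The labels name no shared animal or day, and the main fit did not pair the libraries. Whether same-numbered libraries share an animal is not known from these values. Few counts limit Chek1 and the recombination genes.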
